A study of Mus musculus with 12 samples.

Results

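The genes described are 8 members of the paired immunoglobulin-like receptor (PIR), leukocyte immunoglobulin-like receptor (LILR) and CD300 families, namely Pirb, Lilra5, Lilra6, Lilrb4a, Cd300a, Cd300lb, Cd300ld and Cd300lf. The rule took them by name as receptors of these families and used no measured value, and they were found by gene symbol in a table of 36047 genes, where they took 9 rows because Lilrb4a stands in 2 of them. All 9 rows averaged more than 10 normalized counts over the libraries and were among the 15249 genes tested. RNA was sequenced from eosinophils of the small intestine (SI) lamina propria of wild type female C57BL/6J mice on standard chow, sorted as live CD45+ CD11b+ SiglecF+ MHCII− Ly6G− cells. The sort used integrin α4β7, which homes cells to the gut, and CD22, a sialic acid-binding lectin, to separate 3 subsets, named α4β7+, α4β7− CD22− and CD22+, which the study placed in this order by time spent in the tissue, and the last 2 are called the later subsets. Each subset had 4 libraries, 12 in all, and each library came from cells pooled from a pair of mice, so that a library is not an individual animal. No treatment or allele distinguished the groups. The comparisons ask how the receptors differed among the 3 subsets.

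Paired receptors are families in which inhibitory and activating members have closely related extracellular immunoglobulin domains. The inhibitory members carry immunoreceptor tyrosine-based inhibitory motifs (ITIMs) in the cytoplasmic tail, which recruit the phosphatases SHP-1 and SHP-2, and the activating members have short tails and signal through adaptors with immunoreceptor tyrosine-based activation motifs (ITAMs), such as the Fc receptor γ chain and DAP12. Pirb encodes PIR-B, an inhibitory receptor for major histocompatibility complex (MHC) class I, Lilrb4a encodes gp49B, Cd300a encodes an inhibitory receptor for phosphatidylserine and phosphatidylethanolamine, and Cd300lf encodes CLM-1. Among the activating members, Lilra6 is a gene of the PIR-A type, Cd300lb encodes CLM-7, which signals through DAP12, Cd300ld encodes CLM-5, which pairs with the Fc receptor γ chain, and Lilra5 is an activating LILR gene. Eosinophils are known to carry several of these receptors.

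Pirb and Lilra6 share so much sequence that their counts are not independent, so the sequences are shown before the values. In the GENCODE annotation of GRCm38, Pirb lies at chr7:3711409-3720391 and Lilra6 at chr7:3908280-3915503, both on the minus strand, with Pira and related genes between them. Exons 3 to 8 of the 2 genes were of equal length in pairs and were 92.9% to 99.7% identical, compared base by base. Exon 8 differed at 1 of 303 bases. Exon 7, the next most alike at 98.3%, is printed with the 5 differing bases in capitals and otherwise in lower case, 5′ to 3′ on the minus strand, at chr7:3716594-3716890 in Pirb and chr7:3911956-3912252 in Lilra6.
Pirb exon 7: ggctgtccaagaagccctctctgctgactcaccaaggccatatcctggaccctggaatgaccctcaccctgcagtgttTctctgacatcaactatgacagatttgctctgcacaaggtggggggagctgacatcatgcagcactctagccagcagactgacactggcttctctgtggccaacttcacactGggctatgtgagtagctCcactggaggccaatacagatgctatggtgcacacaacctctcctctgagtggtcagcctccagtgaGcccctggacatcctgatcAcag
Lilra6 exon 7: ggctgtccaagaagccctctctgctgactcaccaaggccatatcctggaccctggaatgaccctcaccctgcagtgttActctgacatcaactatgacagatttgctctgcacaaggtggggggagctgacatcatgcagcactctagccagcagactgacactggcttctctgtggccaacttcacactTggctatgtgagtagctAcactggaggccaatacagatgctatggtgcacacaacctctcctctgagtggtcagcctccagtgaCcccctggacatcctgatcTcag
Exon 3, at 94.4% identity, is printed in the same way with its 16 differing bases in capitals, at chr7:3719637-3719921 in Pirb and chr7:3914789-3915073 in Lilra6. The longest run without a difference was 111 bases in exon 7 and 108 bases in exon 3.
Pirb exon 3: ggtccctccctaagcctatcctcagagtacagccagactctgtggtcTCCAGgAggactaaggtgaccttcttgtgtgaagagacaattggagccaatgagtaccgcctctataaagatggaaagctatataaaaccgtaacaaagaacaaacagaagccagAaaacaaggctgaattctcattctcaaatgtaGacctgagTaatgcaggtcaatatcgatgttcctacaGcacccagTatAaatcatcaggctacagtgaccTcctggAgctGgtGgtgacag
Lilra6 exon 3: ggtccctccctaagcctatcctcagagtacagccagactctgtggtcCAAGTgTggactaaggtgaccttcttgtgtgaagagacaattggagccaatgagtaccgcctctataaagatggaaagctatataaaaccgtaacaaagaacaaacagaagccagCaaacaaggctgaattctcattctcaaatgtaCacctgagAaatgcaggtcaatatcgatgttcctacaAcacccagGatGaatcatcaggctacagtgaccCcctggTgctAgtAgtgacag

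The authors assigned reads with kallisto, which compares words of the read with words of the transcripts, and words of 31 bases, its default length, were therefore counted over the GENCODE transcripts. The annotation behind the authors' index is not given in the sources used here, and some genes of these clusters carry other names in GENCODE than in the table, so that these shares describe the GENCODE transcripts and may differ from those of the index that gave the counts. Of the words of Lilra6, 33.5% occurred in Pirb, and 48.1% occurred in no other gene. Of the words of Pirb, 22.1% occurred in Lilra6, 28.6% in Pira11, and 54.4% in no other gene. Lilrb4a was harder to resolve. Its main row, ENSMUSG00000112148 at chr10:51490956-51496611, had 2.7% of its words to itself, and the second row with that symbol, ENSMUSG00000062593, had 0.1%, or 2 of 1457 words. The annotation draws the second row as a read-through gene at chr10:51480612-51496613 that spans Lilrb4a and its neighbor Lilrb4b, which the table names Lilr4b, so the 2 rows and that neighbor are best read together. The other members were mostly distinct, with 93.4% of words found nowhere else for Cd300ld, 91.6% for Cd300a, 90.6% for Cd300lf, and 100% for Cd300lb and Lilra5. Cd300ld and Cd300lf shared 133 words with each other. Cd300lf also lies within Rab37 on the opposite strand, and the strand setting of the counting is not given in the sources used here.

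**Figure D1:**
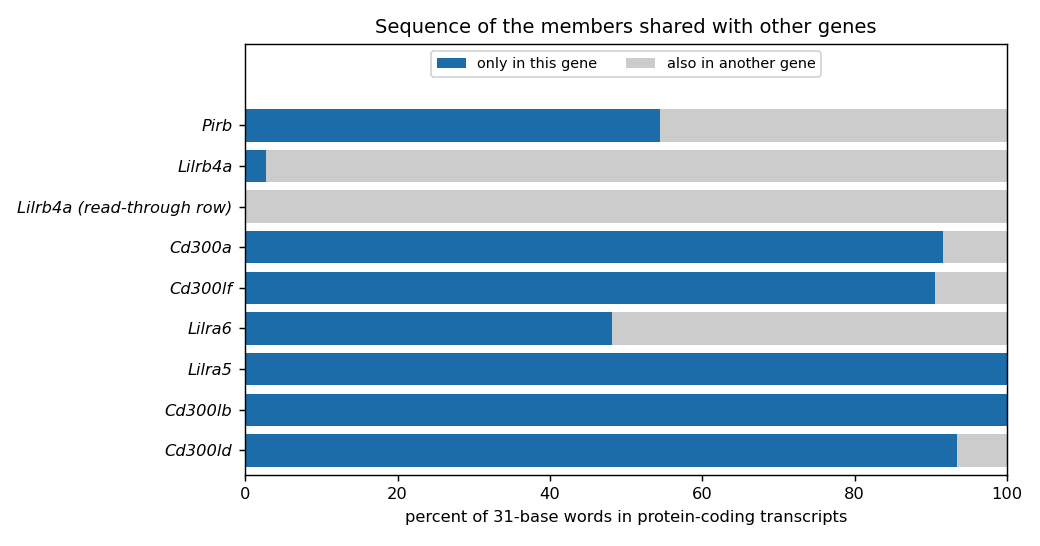
Percent of the 31-base words of each member's protein-coding transcripts that occur only in that gene (blue) or also in another gene (gray). Lilrb4a and its read-through row have 2.7% and 0.1% of words of their own, Lilra6 and Pirb 48.1% and 54.4%, and the remaining members more than 90%.

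Library totals of the normalized counts were 15783607 to 16915755 in α4β7+, 15011473 to 15740374 in α4β7− CD22− and 14286474 to 14758267 in the CD22+ libraries, so that they fell in subset order without overlap. When each library was divided by its total, an alternative added after seeing the data and called equal totals here, the median log2 fold change of all genes against α4β7+ was 0.0972 in α4β7− CD22− and 0.171 in CD22+, in place of 0.0031 and 0.014, and the calls were 820 higher and 504 lower, and 1511 higher and 690 lower, in place of 564 and 664, and 854 and 975. The higher calls were thus 61.9% and 68.7% of all calls in place of 45.9% and 46.7%, and between CD22+ and α4β7− CD22− they were 47.6% in place of 34.8%. Libraries held 19760 to 21960 genes above 0, and the lowest values clustered near a value of 1 read of 0.845 to 1.16 normalized counts. Passing the filter does not tell cell types apart, since all 14 macrophage and monocyte, 10 dendritic, 9 B and plasma and 12 epithelial markers passed it. All 13 eosinophil markers passed it too, with 6884 to 8594 normalized counts of Siglecf. The summed level of these 13 markers was 102400.0 to 116056 in α4β7+, 77502 to 84908 in α4β7− CD22− and 62045 to 67281 in the CD22+ libraries, and 5 and 8 of the 13 were called lower in α4β7− CD22− and CD22+ than in α4β7+, so that eosinophil markers moved in the same direction as Lilra6 and Cd300lb. The sum of 14 macrophage and monocyte markers, cells that also carry these receptors, was 2851 to 3531, 2389 to 3272 and 2144 to 4062, and none of the 14 passed the test in any comparison. Of 12 neutrophil markers 6 averaged above 10, and their sum, most of it Retnlg, was 15170.2 to 22918 in α4β7+, 7362 to 9398 in α4β7− CD22− and 4753 to 5169 in the CD22+ libraries, whereas Elane and Stfa2l1 were at 0 in every library, S100a8 was at most 1.03, and Ly6g was at most 10.8. Single neutrophil markers went both ways from α4β7+ to CD22+, with Retnlg, Mmp8 and S100a9 called lower, and Ngp (log2 fold change 2.15, adjusted p = 1.21e-06) and Cxcr2 (1.17, adjusted p = 1.39e-06) called higher, as both also were in α4β7− CD22−. Of 8 mast cell markers 6 were at most 5 in every library. The 1 tested, Kit, which encodes the receptor for stem cell factor, had a log2 fold change of 0.71 from α4β7+ to CD22+ without overlap of the libraries (SE 0.25, adjusted p = 0.0594), the direction of Cd300ld and Cd300lf, and was called with equal totals or without CD22+ replicate 3. The 8 markers summed to 57.6 to 105, 84.4 to 164 and 104 to 180 in the 3 subsets. No dendritic, B and plasma or epithelial cell marker was called in any comparison. The B and plasma cell markers summed to 26248 to 56890 in α4β7+, 18820 to 56705 in α4β7− CD22− and 26829 to 59498 in CD22+ libraries. This was the largest sum among the marker lists after the eosinophil one, and it varied widely between libraries. Epithelial markers summed to 3645 to 8150.5, 2593 to 5339 and 1984 to 9748, and dendritic cell markers to 2969 to 5061, 3183 to 5785 and 3059 to 7899. Of 8 T and innate lymphoid cell markers tested 3 were called lower in α4β7− CD22− than in α4β7+, in the same direction as Cd300lb, namely Cd3e (log2 fold change -1.11, adjusted p = 0.0168), Cd8a (-0.92, adjusted p = 0.0178) and Il7r (-0.64, adjusted p = 0.0268), and none in the other comparisons. Their summed level was 1062 to 1739, 702 to 1083 and 1071 to 1558 in the 3 subsets. The part of these markers in the results was not tested. In such bulk libraries fewer cells of a type and less RNA per cell cannot be told apart.

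With both an adjusted p not above 0.05 and a difference of 1.5-fold or more required, Lilra6 and Cd300lb, both activating, were the members that changed. Cd300lb was lower in both later subsets than in α4β7+, and Lilra6 was lower in CD22+ than in either other subset. Between α4β7− CD22− and α4β7+ eosinophils 1 of 9 rows was called, Cd300lb, lower, against 8.05% of all genes tested and 4.35% called lower. Between CD22+ and α4β7+ eosinophils 2 of 9 rows were called, Cd300lb and Lilra6, both lower, against 12.0% of all genes and 6.39% called lower. Between CD22+ and α4β7− CD22− eosinophils 1 of 9 was called, Lilra6, lower, against 0.603% of all genes and 0.393% called lower. On the adjusted p alone 4, 7 and 1 of the 9 rows passed in these comparisons, against 14.9%, 21.1% and 1.08% of all genes, so most members that passed moved by less than 1.5-fold. With equal totals Cd300ld was called higher in both later subsets against α4β7+, in addition to the calls of Lilra6 and Cd300lb, which were made there too. Libraries did not overlap between subsets for 5, 5 and 4 of the 9 rows, against 18.8%, 22.9% and 6.37% of all genes. The median log2 fold change of the 9 rows was -0.04, -0.24 and -0.18, beside 0.0031, 0.014 and -0.0014 over all genes tested. Because CD22+ and α4β7− CD22− are compared with the same α4β7+ libraries, the first 2 comparisons are not independent.

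**Figure D2:**
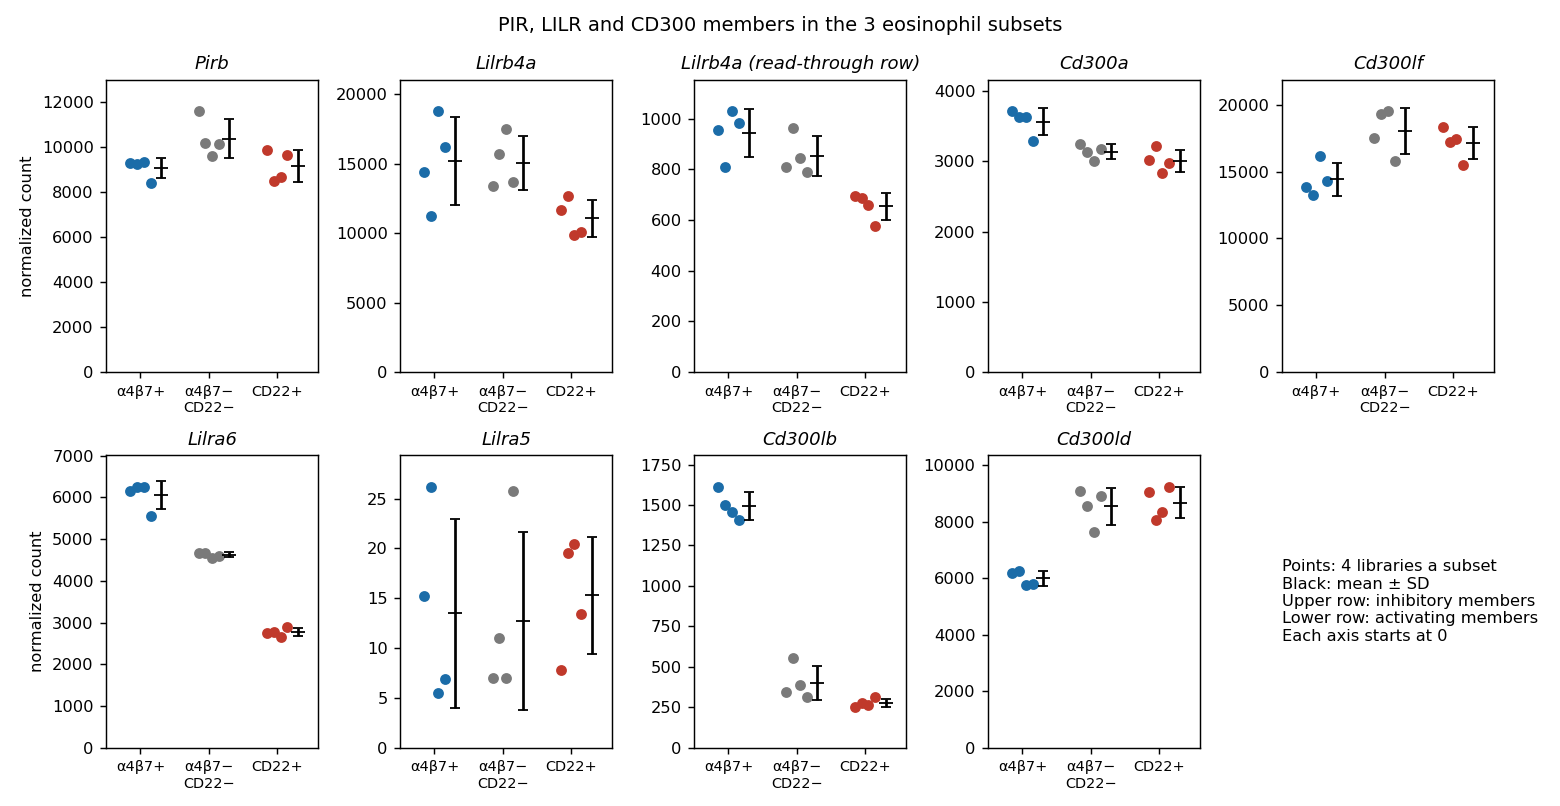
Normalized counts of the 9 rows in the 4 libraries of each subset (points), with the mean and SD in black, inhibitory members above and activating members below, each axis starting at 0. Lilra6 steps down from a mean of 6049 to 4624 to 2772, Cd300lb drops from 1495 to 400.4 to 276, and Cd300ld rises from 5997 to 8552 and stays at 8684 (Cd300ld passed on the adjusted p but not at 1.5-fold).

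The inhibitory members stayed within 1.5-fold in every comparison. Pirb held 9295, 9247, 9351 and 8387 normalized counts in the α4β7+ libraries. It held 11605, 10195, 9585 and 10131 in the α4β7− CD22− libraries and 9875, 8473, 8677 and 9638 in the CD22+ libraries. All 4 α4β7− CD22− libraries lay above the α4β7+ libraries, whereas the CD22+ libraries overlapped both other subsets. The log2 fold change of Pirb was 0.19 (SE 0.0745, limma adjusted p = 0.105) from α4β7+ to α4β7− CD22− and 0.01 (SE 0.0745, adjusted p = 0.929) from α4β7+ to CD22+, so neither difference passed the test. From α4β7− CD22− to CD22+ it was -0.18 (adjusted p = 0.415). With quantile normalization the first of these was 0.28 and passed on the adjusted p (0.02), as it did with equal totals, at 0.29 (adjusted p = 0.0148), both still under 1.5-fold.

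Lilrb4a, which encodes gp49B, was the most spread of the abundant members. Its main row held 14439.5, 11230.2, 18796 and 16238 normalized counts in the α4β7+ libraries, 13397, 15727, 17498 and 13653 in α4β7− CD22−, and 11647, 12682, 9899 and 10059 in the CD22+ libraries. The CD22+ libraries lay below all 4 α4β7− CD22− libraries but overlapped the α4β7+ range, whose lowest library, replicate 2, was at 11230.2. The CD22+ level was lower than the α4β7+ level by 0.44 on the log2 scale (log2 fold change -0.44, SE 0.138, adjusted p = 0.0353), under 1.5-fold, and the difference from α4β7− CD22− was also -0.44 but did not pass (adjusted p = 0.208). The first of these is not firm, since it did not pass in 11 of 22 alternatives, among them leaving out α4β7+ replicate 1, 3 or 4 or CD22+ replicate 1, 3 or 4 (adjusted p up to 0.113 over all 12 left-out libraries), and was -0.17 with quantile normalization (adjusted p = 0.4) and -0.28 with equal totals (adjusted p = 0.167). The read-through row averaged 943 ± 95.3, 852 ± 78.4 and 654 ± 54.1 (SD, n = 4) and was lower in CD22+ than in α4β7+ by a log2 fold change of -0.53 (SE 0.102, adjusted p = 0.00161), again under 1.5-fold except without α4β7+ replicate 2, at -0.60. Added together with Lilrb4b, the 3 rows summed to 41909 ± 8208, 39049 ± 4179.6 and 27982 ± 3715. That sum does not depend on how reads were divided among them. Its log2 fold change was -0.57 (SE 0.131, adjusted p = 0.00574) from α4β7+ to CD22+, which is 1.48-fold lower and falls just inside the 1.5-fold limit. Leaving out α4β7+ replicate 2 moved it to -0.70, past that limit, as did leaving out CD22+ replicate 1, at -0.59, or CD22+ replicate 2, at -0.65.

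Cd300a and Cd300lf are inhibitory receptors of the CD300 family and lie at opposite ends of its cluster on chromosome 11, at chr11:114890041-114904654 and chr11:115116214-115133992. Cd300a held 3719, 3632, 3630.3 and 3286 normalized counts in the α4β7+ libraries, 3246, 3141, 3002 and 3172 in α4β7− CD22−, and 3020.2, 3215, 2840.4 and 2972 in the CD22+ libraries. Every α4β7+ library lay above every library of the other subsets, which overlapped each other. The decrease to CD22+ was 1.18-fold (log2 fold change -0.24, SE 0.0648, adjusted p = 0.0141), and that to α4β7− CD22− was -0.18 and did not pass (adjusted p = 0.0762) unless α4β7+ replicate 4 was left out (-0.22, adjusted p = 0.0443). The decrease to CD22+ did not pass with quantile normalization, at -0.14 (adjusted p = 0.116), or with equal totals, at -0.09 (adjusted p = 0.344). Cd300lf went the other way. It held 13875, 13270.2, 16189 and 14328 in α4β7+, 17553, 19301, 19536 and 15771 in α4β7− CD22−, and 18332, 17201, 17474 and 15518 in the CD22+ libraries. The subsets overlapped, because α4β7+ replicate 3 was above the lowest library of each later subset. The log2 fold change of Cd300lf was 0.32 (SE 0.0837, adjusted p = 0.0173) to α4β7− CD22− and 0.25 (SE 0.0837, adjusted p = 0.0462) to CD22+, both under 1.5-fold. Both depended on the alternative. With quantile normalization they were 0.48 (adjusted p = 0.000524) and 0.57 (adjusted p = 6.29e-05), and with equal totals 0.42 (adjusted p = 0.00354) and 0.41 (adjusted p = 0.00251), all still under 1.5-fold. The difference to CD22+ did not pass in 12 of 22 alternatives, including 8 of the 12 that leave out a library (all but α4β7+ replicate 3, α4β7− CD22− replicates 3 and 4 and CD22+ replicate 4), where the adjusted p reached 0.129. The difference to α4β7− CD22− did not pass in 4 of 22, including those without α4β7+ replicate 2 or α4β7− CD22− replicate 2 or 3, where it reached 0.0578.

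The activating members held the large changes. Lilra6, the PIR-A type gene, held 6156, 6238, 6256 and 5547 normalized counts in the 4 α4β7+ libraries. It held 4671, 4679, 4552 and 4595 in α4β7− CD22− libraries and 2754, 2776, 2653 and 2903 in the CD22+ libraries. No library of a subset overlapped another subset, and the 4 values within each subset were close, with SDs of 337, 61.3 and 103. Lilra6 fell 2.18-fold from α4β7+ to CD22+ (log2 fold change -1.12, SE 0.0602, adjusted p = 6.39e-09). It also fell 1.67-fold from α4β7− CD22− to CD22+ (log2 fold change -0.74, SE 0.0602, adjusted p = 2.37e-05). From α4β7+ to α4β7− CD22− it was lower by 1.31-fold (log2 fold change -0.39, adjusted p = 0.000476), which passed on the adjusted p but not at 1.5-fold. The second step was larger than the first by -0.35 on the log2 scale, a difference that did not pass the test (SE 0.104, adjusted p = 0.127).

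Cd300lb, which encodes the DAP12-linked receptor CLM-7 at chr11:114922781-114934386, had the largest fold change among the members. Its α4β7+ libraries held 1613, 1502, 1457 and 1407 normalized counts. The α4β7− CD22− libraries held 345, 553, 390.5 and 313, and the CD22+ libraries 252, 274, 265 and 313. The α4β7+ libraries stood far above all the others, and the later subsets met at their edge, with the lowest α4β7− CD22− library and the highest CD22+ library both printed as 313 but not overlapping before rounding. Cd300lb fell 3.81-fold to α4β7− CD22− (log2 fold change -1.93, SE 0.147, adjusted p = 7.24e-07) and 5.42-fold from α4β7+ to CD22+ (log2 fold change -2.44, SE 0.147, adjusted p = 2.13e-08). From α4β7− CD22− to CD22+ the log2 fold change was -0.51 and did not pass (SE 0.147, adjusted p = 0.158). The steps differed by 1.42 on the log2 scale (SE 0.255, adjusted p = 0.0137), so that the drop was mostly in the first step, and Cd300lb was the 1 member among 9 rows to pass this test, against 1.23% of all genes. Without α4β7− CD22− replicate 1 the difference between the steps was 1.30 and no longer passed (adjusted p = 0.062), and without the variance trend it was 1.42 and did not pass either (adjusted p = 0.0542).

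Cd300ld, which encodes the Fc receptor γ chain-linked receptor CLM-5 at chr11:114982274-114989922, was higher in both later subsets. It held 6189, 6250.3, 5764 and 5786 normalized counts in the α4β7+ libraries, 9111, 8565, 7633 and 8899 in α4β7− CD22−, and 9075, 8077, 8342 and 9244 in the CD22+ libraries. All 8 libraries of the later subsets lay above the α4β7+ libraries, and the later subsets overlapped. The log2 fold change was 0.51 (SE 0.0707, adjusted p = 0.000179) to α4β7− CD22− and 0.53 (SE 0.0707, adjusted p = 6.24e-05) to CD22+, 1.42-fold and 1.45-fold and therefore short of 1.5-fold, although with quantile normalization the latter was 0.70 and was called, and with equal totals both were, at 0.60 (adjusted p = 2.7e-05) and 0.69 (adjusted p = 3.91e-06). Between the later subsets it was 0.02 (SE 0.0707, adjusted p = 0.961). The difference between its steps, -0.49, did not pass (adjusted p = 0.0741), although without α4β7− CD22− replicate 3 it was -0.59 and did (adjusted p = 0.0478), as it did with equal totals, at -0.52 (adjusted p = 0.0461). Lilra5 was close to the limit of detection, at 5.54 to 26.2, 6.97 to 25.8 and 7.84 to 20.4 normalized counts in the 3 subsets. These values correspond to few reads, the standard error of its log2 fold changes was 0.57, and a difference was not detectable at this depth (adjusted p = 0.755 from α4β7+ to CD22+).

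**Figure D3:**
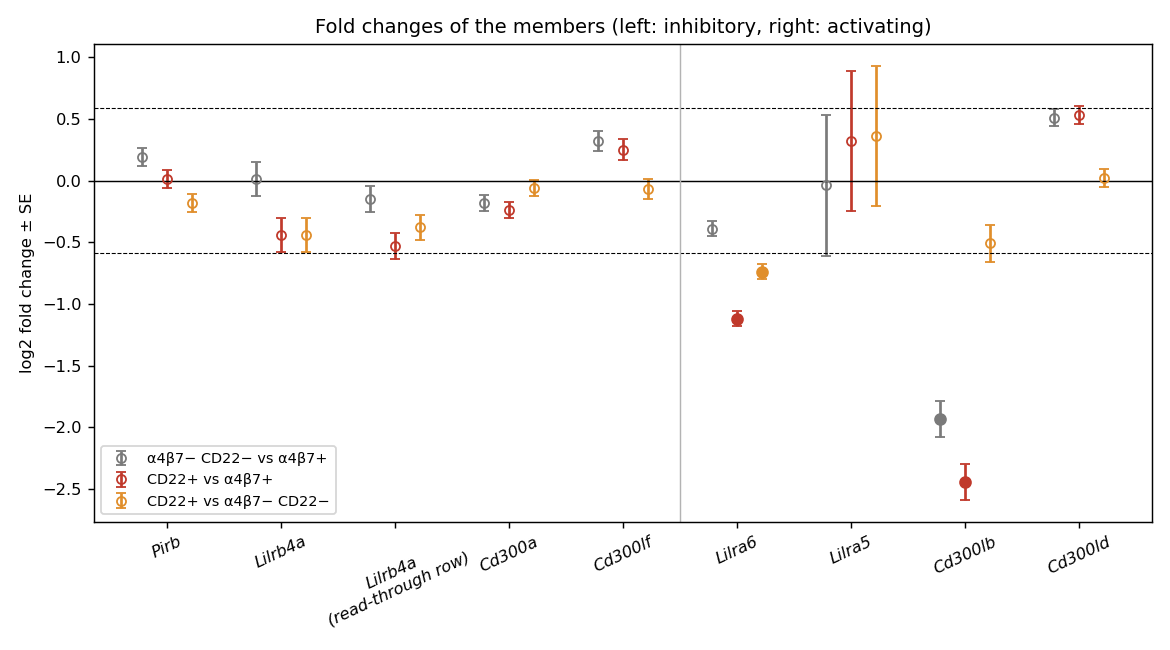
Log2 fold changes with standard errors from limma for the 9 rows in the 3 comparisons, filled where a row passed the adjusted p and 1.5-fold, with dashed lines at 1.5-fold. Filled points are Cd300lb at -1.93 and -2.44 and Lilra6 at -1.12 and -0.74, and the inhibitory members on the left lie between the dashed lines.

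Whether the decrease of Lilra6 held for the PIR genes as a group was examined by summing Pirb, Lilra6 and the 4 Pira genes in the table. The sum was 20248 ± 954 in α4β7+, 18364 ± 968 in α4β7− CD22− and 14950.1 ± 741 in the CD22+ libraries (SD, n = 4). It was lower in CD22+ than in α4β7+ by a log2 fold change of -0.44 (SE 0.0618, adjusted p = 0.000112) and than in α4β7− CD22− by -0.30 (SE 0.0618, adjusted p = 0.0344), both under 1.5-fold. The second of these did not pass in 7 of the 12 alternatives that leave out a library, namely without any of the 4 α4β7− CD22− libraries or without CD22+ replicate 2, 3 or 4 (adjusted p up to 0.119), or with equal totals (-0.23, adjusted p = 0.119). With the near-identical genes summed, no 1.5-fold call was therefore left in the comparison of CD22+ with α4β7− CD22−, where 1 stood before, and 1, Cd300lb, in that of CD22+ with α4β7+. In an alternative chosen after seeing the data, when the pseudogenes Gm15930, Gm15925 and Gm10693 of the cluster were added, the second of these differences was -0.26 and did not pass (adjusted p = 0.0622).

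Within that sum the composition shifted toward Pirb. Lilra6 made up 29.3% to 30.7% of the summed counts in α4β7+, 23.7% to 26.0% in α4β7− CD22− and 17.6% to 19.3% in the CD22+ libraries, and Pirb 44.3% to 45.5%, 54.7% to 58.8% and 58.9% to 63.0%. These are shares of counts, not of molecules, since the transcripts differ in length. The ratio of Pirb to Lilra6 counts was 1.48 to 1.51, 2.11 to 2.48 and 3.05 to 3.59, with no overlap between subsets. On the log2 scale the ratio rose by 0.58 in the first step and by 0.56 in the second, and by 1.14 from α4β7+ to CD22+, each with an exact two-sided permutation p of 0.0286, the smallest that 4 against 4 libraries allow, and an adjusted p of 0.0286 over the 3 comparisons. Libraries of α4β7− CD22− and CD22+ with the same replicate number deviated together, and with them taken as pairs the exact p of the second step was 0.125, the smallest that 4 pairs allow, so that the paired test could not pass. With Lilra6 and all Pira genes as the denominator the rises were 0.68, 0.29 and 0.96, at the same p. With the pseudogenes in the denominator as well, the rise from α4β7− CD22− to CD22+ was 0.17 and did not pass (exact p = 0.0571, adjusted p = 0.0571).

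**Figure D4:**
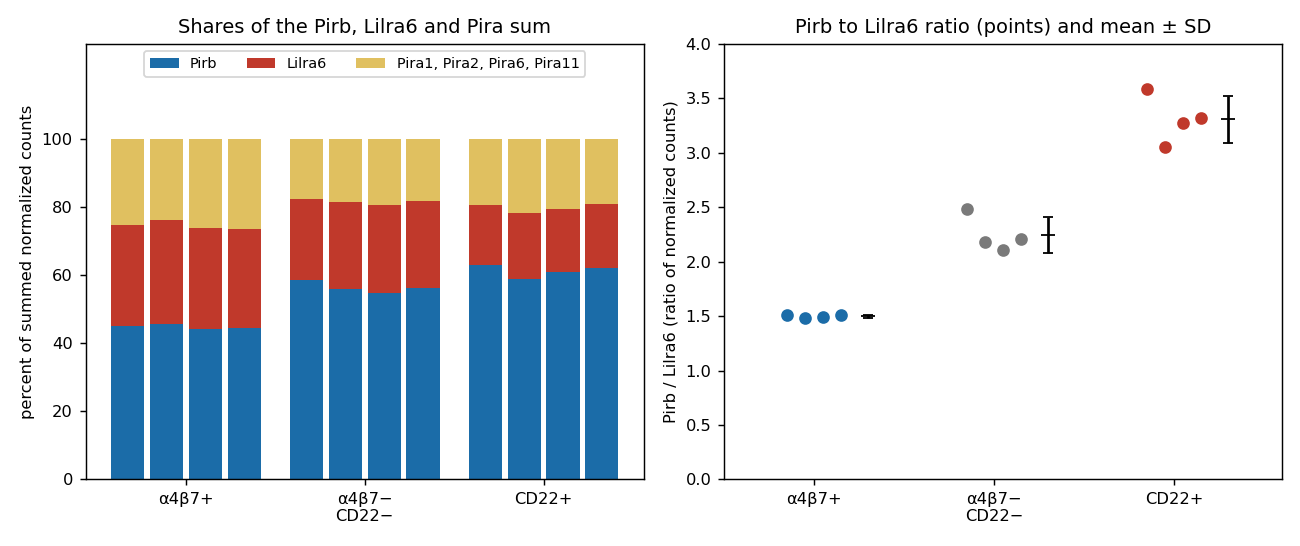
Left, shares of Pirb, Lilra6 and the Pira genes in their summed normalized counts for each of the 12 libraries. Right, the ratio of Pirb to Lilra6 counts in each library with the mean and SD, which steps from 1.48 to 1.51 in α4β7+ through 2.11 to 2.48 to 3.05 to 3.59 in CD22+.

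The other genes of these families were read from lists of 16 PIR and LILR genes, 7 of which were tested, and 9 CD300 genes, 4 of which were tested. Of the PIR and LILR genes 0 were called higher and 2 lower in α4β7− CD22− than in α4β7+, and 0 and 4 in CD22+ than in α4β7+, against 4.35% and 6.39% of all genes called lower, with a median log2 fold change of -0.63 in the latter beside 0.014 over all genes. With equal totals 2 were called in the latter in place of 4. Pira2, a PIR-A gene of the same cluster, held 2152 ± 76.6, 1116 ± 105 and 513 ± 77.1 normalized counts and fell in every comparison, by 1.13 on the log2 scale in the last step (adjusted p = 8.62e-05). Pira6 held 337 ± 38.1, 54.7 ± 11 and 40.5 ± 5.72, a log2 fold change of -3.03 from α4β7+ to CD22+ (adjusted p = 4.35e-08). Lilr4b, the neighbor of Lilrb4a, held 25789 ± 5073, 23129 ± 2282 and 16256 ± 2371, a log2 fold change of -0.66 (adjusted p = 0.00225). Genes of the cluster did not all fall. Pira11, which shares words with Pirb and Lilra6, held 1781 ± 141, 1454 ± 40.5 and 1913 ± 109 normalized counts. Its CD22+ libraries, at 1750 or more, all lay above the α4β7− CD22− libraries, at most 1496.5, and overlapped the α4β7+ libraries. In that comparison of CD22+ with α4β7− CD22−, 1 of the 7 genes tested was higher and 1 lower on the adjusted p. The pseudogene Gm10693 rose from 447 ± 25.2 to 1218 ± 45.1, a log2 fold change of 1.44 (adjusted p = 2.12e-08), and Gm15925 fell from 105 ± 11.4 to 16.5 ± 7.71, a log2 fold change of -2.70 (adjusted p = 4.7e-05). Pira11 and these pseudogenes were chosen after their values were seen. The counts of the pseudogenes are as uncertain as those of the genes they resemble.

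Of the CD300 genes 2 were called higher and 1 lower in each later subset against α4β7+, where 8.05% and 12.0% of all genes were called. Cd300c, an activating receptor, held 8.79 ± 5.62, 43.1 ± 15.9 and 88.8 ± 12.8 normalized counts, a log2 fold change of 3.36 from α4β7+ to CD22+ (SE 0.409, adjusted p = 2.66e-05). Cd300c2 held 1043 ± 124, 1658 ± 203 and 1647 ± 132, a log2 fold change of 0.66 (SE 0.105, adjusted p = 0.000321). Both lie beside Cd300ld and were higher in the later subsets, as it was. Cd300ld3 held 178, 169, 130.2 and 150.2 in α4β7+, 6.19, 9.99, 10.1 and 6.22 in α4β7− CD22−, and 0, 0.844, 0.921 and 1.04 in the CD22+ libraries. The CD22+ libraries held at most about 1 read, and no fold change is given. The median of these 4 genes from α4β7+ to CD22+ was 0.41, and does not depend on the value of Cd300ld3, the lowest of them. Summing Cd300ld with the numbered Cd300ld genes, Cd300c and Cd300c2 gave 7215 ± 376, 10264 ± 800.1 and 10425 ± 693, and log2 fold changes of 0.51 and 0.53 against α4β7+, the same as for Cd300ld alone, and 0.60 and 0.69 with equal totals, where both were called. Thus Cd300 genes of the cluster went both ways between α4β7+ and CD22+. Cd300lb and its neighbor Cd300a were lower, and Cd300ld and Cd300c2 were higher, each on the adjusted p (Cd300a not with quantile normalization or equal totals). Cd300ld3 was also lower, and Cd300c, on the other side of Cd300lb, higher. These 2 passed the filter only through the subsets where they were high, averaging 0.70 in CD22+ and 8.79 in α4β7+. Their calls and adjusted p are therefore no support for this.

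**Figure D5:**
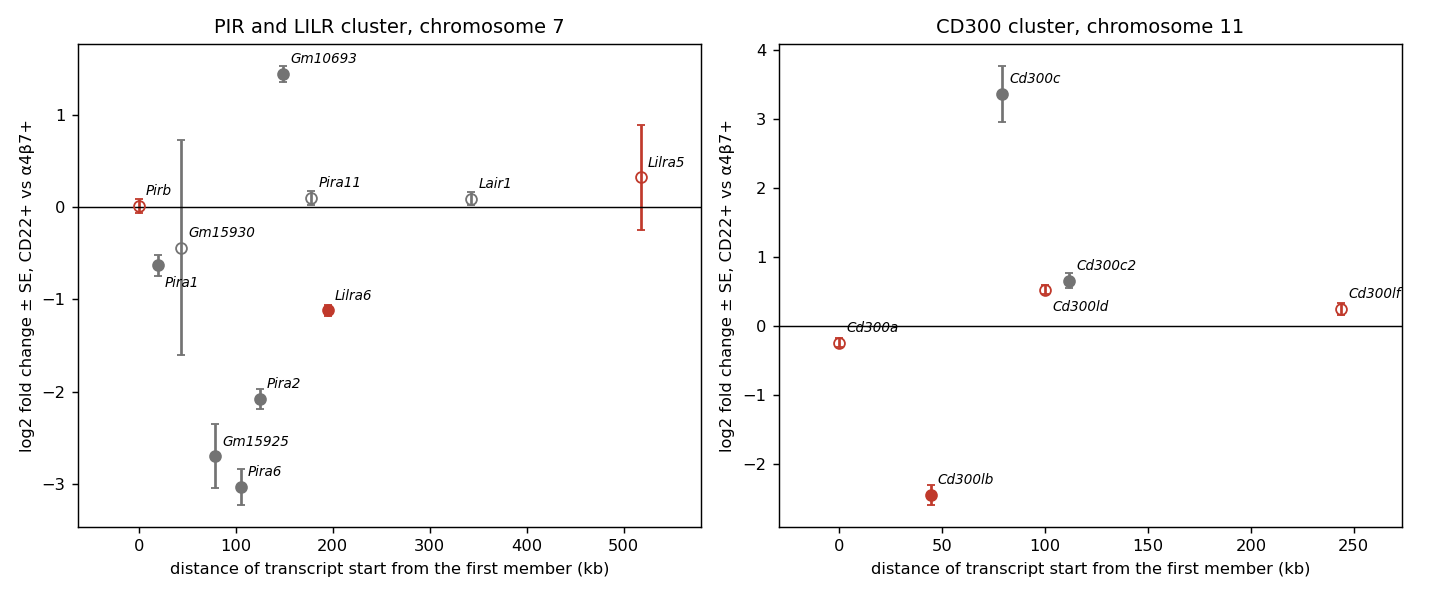
Log2 fold changes with standard errors from α4β7+ to CD22+ against the distance of each transcript start from Pirb (left) or Cd300a (right), in kilobases, with members in red, other genes in gray, and filled points where a gene passed the adjusted p and 1.5-fold. Cd300ld3, at or under 1.04 normalized counts in the CD22+ libraries, is left out, and neighbors lie on opposite sides of 0 in both clusters, as do Cd300lb at -2.44 and Cd300c at 3.36. Cd300c averaged 8.79 normalized counts in α4β7+ and passed the filter only through the later subsets.

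Because Lilra6 fell and Pirb did not pass the test while their exons are near copies, their promoters were compared. RefSeq promoters on GRCm38.p6 were found for 7 of the 8 members, all but Lilrb4a. The 250 bases before the start are printed 5′ to 3′ with the letters of the ETS core, AGGAAG on either strand, in capitals, for Pirb at chr7:3720383-3720632 and Lilra6 at chr7:3915502-3915751 on the minus strand, and for Cd300lb, the member with the largest change, at chr11:114934372-114934621 on the minus strand.
Pirb promoter: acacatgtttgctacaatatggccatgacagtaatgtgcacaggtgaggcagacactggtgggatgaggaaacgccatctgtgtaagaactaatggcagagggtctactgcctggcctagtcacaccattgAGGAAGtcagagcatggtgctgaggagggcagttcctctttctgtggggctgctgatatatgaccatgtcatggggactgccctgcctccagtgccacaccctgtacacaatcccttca
Lilra6 promoter: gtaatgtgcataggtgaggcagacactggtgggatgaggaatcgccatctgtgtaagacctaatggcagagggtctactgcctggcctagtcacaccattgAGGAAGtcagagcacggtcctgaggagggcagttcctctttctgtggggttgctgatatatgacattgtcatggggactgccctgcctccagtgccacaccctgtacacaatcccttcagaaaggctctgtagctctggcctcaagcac
Cd300lb promoter: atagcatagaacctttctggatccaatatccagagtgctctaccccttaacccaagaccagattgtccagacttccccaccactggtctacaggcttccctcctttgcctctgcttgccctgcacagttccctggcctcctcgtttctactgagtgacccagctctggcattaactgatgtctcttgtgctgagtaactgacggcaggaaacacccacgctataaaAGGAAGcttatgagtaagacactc
With the Lilra6 window moved by 30 bases, 212 of 220 bases of the Pirb and Lilra6 promoters were identical (96.4%), about as many as for Pirb and Pira2 (97.7% of 222). Pirb, which did not pass the test, and Lilra6 and Pira2, which fell, thus have nearly the same letters upstream. The ETS core was present in all 7 member promoters, against 29.5% of 32851 RefSeq promoters of the same length. GATA letters (AGATAA) and the nuclear receptor half-site (AGGTCA), searched on both strands, were in 0 of the 7, against 3281 and 4607 of the 32851, and the C/EBP letters TTGCNNAA in 2 of the 7, against 9.6%. Windows of Pirb and Lilra6 are near copies and do not count as separate cases, and a match is a description of the letters only.

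Downstream of the receptors, the 15 ITAM adaptor and kinase genes listed were all tested, and 2 were called higher and 1 lower in CD22+ than in α4β7+, with a median log2 fold change of -0.01. These 3 of 15 stand against 12.0% of all genes called in that comparison, and the 1 lower against 6.39% called lower. Card9, an adaptor of ITAM-coupled receptors, held 1002 ± 152, 1852 ± 193 and 1991 ± 229 normalized counts and rose by 1.00 on the log2 scale (adjusted p = 1.98e-05). Lat2, a membrane adaptor of Fc receptor signaling, held 292 ± 27.8, 443 ± 43.4 and 552 ± 39.1, a log2 fold change of 0.92 (adjusted p = 2.03e-05). Btk, a kinase downstream of these receptors, held 2484 ± 94.8, 1924 ± 198 and 1442 ± 76.4, a log2 fold change of -0.79 (adjusted p = 4.98e-06). Of 10 ITIM effectors 1 was called, a share near the 12.0% of all genes, namely Dok1, an adaptor that inhibits kinase signaling, which rose from 353 ± 50.9 to 762 ± 83.7, a log2 fold change of 1.11 (adjusted p = 1.63e-05). None of the genes of these lists was called at 1.5-fold between CD22+ and α4β7− CD22−.

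Several genes of MHC class I, the class of molecules that PIR-B binds, fell. The list held 8 class I heavy chain genes, the light chain gene B2m, and Tap1, Tap2 and Tapbp, which serve peptide loading and encode no ligand. Of these 12, all tested, 0 were called higher and 5 lower in α4β7− CD22−, and 0 and 6 in CD22+ eosinophils against α4β7+, against 4.35% and 6.39% of all genes called lower, with medians over the 12 of -0.50 and -0.58 on the log2 scale. Every gene called was a heavy chain gene or B2m. Tap2, named after its values were seen, was higher in CD22+ than in α4β7+ (log2 fold change 0.35, adjusted p = 0.000995), under 1.5-fold. H2-K1, a classical class I heavy chain, held 20259.6 ± 1819.8, 12166 ± 408 and 10353 ± 1435 normalized counts, a log2 fold change of -0.97 from α4β7+ to CD22+ (adjusted p = 1.47e-06). H2-Q6 held 4797 ± 876, 1808 ± 273 and 1439 ± 459, and H2-Q7 held 6600.2 ± 1658, 2549.9 ± 408 and 2047 ± 559, lower from α4β7+ to CD22+ by log2 values of -1.77 (adjusted p = 5.56e-06) for the first and -1.69 (adjusted p = 8.28e-06) for the second. These class I genes are much alike, and their separate counts are uncertain. Beside these values Pirb, the receptor, had a log2 fold change of 0.01 in the same comparison. Of 22 other paired myeloid receptors 4 were called higher and 2 lower in CD22+ than in α4β7+, where 12.0% of all genes were called. Sirpb1a, an activating signal-regulatory protein, held 246 ± 51.3, 807 ± 99.0 and 952 ± 19.9, its relative Sirpb1c 14.7 ± 5.30, 43.6 ± 8.49 and 63.1 ± 11.3, and Fcgr4, an activating Fc receptor, 569 ± 114, 1084 ± 121 and 1380.1 ± 132. Their log2 fold changes from α4β7+ to CD22+ were 1.97, 2.07 and 1.29 (adjusted p = 6.79e-08, 0.00012 and 6.19e-06).

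Levels of different genes were compared per kilobase of the mean annotated protein-coding transcript. In α4β7+ libraries Lilrb4a was highest, at 14590.0 ± 3058 normalized counts per kilobase, then Cd300lf at 7847 ± 686, Lilra6 at 2853 ± 159, Pirb at 2372 ± 120 and Cd300ld at 2267 ± 97.6, with Pirb and Cd300ld overlapping. Cd300a at 769 ± 41.3 and Cd300lb at 542 ± 31.8 followed, with the read-through row between them and overlapping each, and Lilra5 was at 6.39 (range 2.63 to 12.4). In CD22+ libraries the order changed in the middle. Cd300ld was at 3283 ± 213 and Pirb at 2397 ± 182 per kilobase, above Lilra6 at 1307 ± 48.4, and Cd300lb was at 99.9 ± 9.53. Lilrb4a and Cd300lf overlapped there, at 10644 ± 1281 and 9326 ± 642. Lilra6, above Pirb per kilobase in every α4β7+ library, was thus below it in every library of the later subsets. In counts Pirb was above Lilra6 in every library, with ratios of 1.48 to 3.59. The order per kilobase in α4β7+ therefore rests on the annotated mean lengths, 2120 bases for Lilra6 and 3824 for Pirb, and on how shared reads were divided. By role, the summed counts of the inhibitory members were 2.72 to 3.63, 3.15 to 4.01 and 3.11 to 3.79 times those of the activating members in the 3 subsets, ranges that overlap.

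The genes most like each member over the 12 libraries, by Pearson r of log2(normalized count + 1) among genes averaging at least 100, are given as a description, since the libraries share subsets. For Lilra6 these were Ccl6 (r = 0.977), a chemokine, and Alox15 (r = 0.976), a lipoxygenase of eosinophils. For Cd300lb they were Eif5a (r = 0.992), a translation factor, and Osm (r = 0.988), which encodes the cytokine oncostatin M. Those of Cd300ld were Acp5 (r = 0.987), tartrate-resistant acid phosphatase, and Cd82 (r = 0.986), a tetraspanin. Those of Cd300a were Nfe2l2 (r = 0.964) and Katna1 (r = 0.962), and those of Cd300lf Cyth4 (r = 0.942) and Il10ra (r = 0.924), the interleukin-10 receptor chain. Pirb was most like Dok3 (r = 0.946), an adaptor of inhibitory signaling, and Med30 (r = 0.93). The main row of Lilrb4a was most like Lilr4b (r = 0.946), with which it shares words, and Kif3b (r = 0.928), and the read-through row was most like Ywhaz (r = 0.965) and Dip2c (r = 0.938). Lilra5, at few reads, was most like Glo1 (r = 0.873) and Oser1 (r = 0.826).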

How the data were processed

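RNA of sorted eosinophils was sequenced from 3 SI subsets, each with 4 libraries, from 3 ng of RNA with a stranded total RNA kit. The authors trimmed reads with Trimmomatic 0.39, pseudoaligned them with kallisto 0.46.1 to mm10 and normalized with DESeq2 1.38.2, per the submitters' processing notes. The values deposited by the authors, a signal without whole-number steps, are normalized counts. The normalized counts were compared with limma 3.58.1 in R 4.3.3, with a variance trend, on log2(normalized count + 1), all 3 subsets in one model, for genes averaging above 10. Fold changes are on that scale, which understates those of low genes. P-values were adjusted (Benjamini-Hochberg) within each comparison over all genes tested, and calls needed an adjusted p of at most 0.05 and 1.5-fold, as in the study's methods. The difference between steps was called on the adjusted p alone.

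The Pirb to Lilra6 ratio was compared by exact permutation. Simulated data with known changes were used to check the fit. The members, gene lists and tests were chosen with earlier results of these data known. Genes named beside the members are, per list, at most 3 called genes with the largest change from α4β7+ to CD22+, and the 2 genes most like each member. Pseudogenes and markers were chosen by position or name, the markers picked for the text after their values were seen. Pira11 and Tap2 were also named after their values were seen. Positions and transcripts came from GENCODE (vM21, GRCm38) and promoters from RefSeq. A floor of 3 reads corresponds to 2.54 to 3.46 normalized counts and covers counting error only. Libraries are replicates per the labels, pooled from pairs of mice. Deviations of same-numbered libraries from their subset means correlated at 0.135 to 0.203 between α4β7− CD22− and CD22+, above 0.1 in all 4 pairs, so that these were taken as paired by the data, since the labels give only the number. Not all pairs passed 0.1 in the other comparisons (-0.059 to 0.182). Alternatives were other pseudocounts, filters, scalings (equal totals added after seeing the data) and models, summing of near-identical genes, and leaving out each library. Reads were not used here.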

Additional observations from a re-analysis of the deposited data

Results flagged for a closer look

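In the α4β7+ subset the library of replicate 4 stood apart from the other 3 for 2 members. It held 5547 normalized counts of Lilra6, where the others held 6156 to 6256. It held 8387 normalized counts of Pirb, where the others held 9247 to 9351. The Pirb to Lilra6 ratio of that library, 1.51, lay close to those of the others, with 1.48 to 1.51 over all 4. A total of 27 groups of 4 libraries were looked at in this way, and chance marks about 1 in 20 groups.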

How the results depend on the processing

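The 21 results on members, sums and the ratio that passed on the adjusted p kept their direction in all 401 of their alternatives, but several small differences lost that p, as given beside Lilrb4a, Cd300a, Cd300lf and the summed PIR genes. On the adjusted p alone 4 and 7 rows passed in α4β7− CD22− and CD22+ against α4β7+, where 1 and 2 were called with the 1.5-fold limit. With libraries rescaled to equal totals, added after seeing the data, 2 members were called between α4β7− CD22− and α4β7+ and 2 differed between the steps, with Cd300ld added in each case, and the summed Cd300ld, Cd300c and Cd300c2 genes were called at 0.60 and 0.69 in α4β7− CD22− and CD22+ against α4β7+. With near-identical genes summed, 1 row was called between CD22+ and α4β7+, and 0 between CD22+ and α4β7− CD22−, because Lilra6 no longer stood alone. The count of members whose steps differed, 1, was 0 without the variance trend and ranged from 0 (without α4β7− CD22− replicate 1) to 2 (without replicate 3 of that subset) when a library was left out. Leaving out each library moved the log2 fold change of the Lilrb4a and Lilrb4b sum from α4β7+ to CD22+ between -0.70 and -0.46, an alternative added after seeing the data. With pseudogenes in the denominator, also added later, the change of the Pirb to Lilra6 ratio from α4β7− CD22− to CD22+ was 0.17.

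By the limit of 0.1 for every pair, same-numbered libraries deviated together in 1 of the 3 comparisons, that of CD22+ with α4β7− CD22−. For the other 2 the numbers were taken as names only, although 10 of the 12 same-numbered pairs over all comparisons correlated better than pairs of other numbers. Between α4β7+ and α4β7− CD22− the correlations were all positive, at 0.043, 0.118, 0.137 and 0.05, so that a pairing there is not excluded. With the replicate block the members called were still 1, 2 and 1, and the ratio changes, in a blocked test added later, were 0.58, 1.14 and 0.56, with an exact p of 0.125, the smallest that 4 pairs allow, so this test could not pass. The block changed no other call of a member or a sum, and the eosinophil markers called between CD22+ and α4β7− CD22− went from 1 to 2. Of 779 alternatives for single members 771 kept their call, made on the adjusted p and 1.5-fold for comparisons of subsets and on the adjusted p alone for differences between steps. Most belong to results that were not called at first, so this share says little about those that were. The subset calls of Lilra6 and Cd300lb were kept in 22 of 22 alternatives each, and the Cd300lb step difference in 19 of 21. Summing of near-identical genes, where Lilra6 lost its calls, is not among these. Of members called between CD22+ and α4β7+, 2 to 3 were counted when a library was left out. Low counts limited Lilra5, and shared sequence limited Pirb, Lilra6 and Lilrb4a. The depth before normalization is not given in the sources used here.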
